A study of Danio rerio with 6 samples.

Results

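The comparison of zebrafish embryos injected with CNOT7-DN, a dominant negative form of the deadenylase subunit CNOT7, against control embryos of the same stage, 6 hours post fertilisation (hpf), is described here. Its members are the genes at 1 FPKM or more in CNOT7-DN, in control 6 hpf or in both, where FPKM is the number of sequenced fragments scaled for transcript length and sequencing depth. Of 32571 genes in the table, 15626 met this rule. RNA was sequenced from pools of whole AB embryos from natural matings in 6 groups: CNOT7-DN, miR-430 MO (a morpholino against the microRNA miR-430), alpha-amanitin (which blocks RNA polymerase II), control 6 hpf, control B (a second control of 6 hpf, named by the labels for the amanitin experiment) and control 2 hpf. The injected groups were also taken at 6 hpf. The labels give neither the dose of CNOT7-DN nor its mutation, and do not say whether the controls were injected. Triplicates are stated in the design, but the table holds 1 value per gene and group, so no value carries a standard deviation, and the depth behind it is unknown.

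Maternal mRNAs, laid down in the egg, carry the embryo through its first divisions and are removed while the embryo's own genome is switched on. Removal usually starts with shortening of the poly(A) tail, carried out in large part by the CCR4-NOT complex, in which the related enzymes Cnot7 and Cnot8 are alternative catalytic subunits beside Cnot6. MicroRNAs such as miR-430, RNA-binding proteins and poor codon usage all direct mRNAs to this complex. A dominant negative catalytic subunit is used to occupy the complex without trimming tails.

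A gene is said to have risen or fallen only where the authors' deposited table gave a q-value, their p-value adjusted for all genes tested, under 0.05. The size of a change is given as the log2 ratio of FPKM + 1, CNOT7-DN over control 6 hpf, so that changes of genes at low levels are understated. The smallest q-value in the comparison was 0.000996 and stands for the smallest p-value the table holds, 5e-05. At the edge of the membership rule, isoc2 lay just inside with 1.0008 FPKM in CNOT7-DN and 0.806 in control 6 hpf, and gabpb1 just outside with 0.9997 and 0.867.

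The gene named by the label had the largest rise of all called genes. The cnot7 row (ENSDARG00000032116, chromosome 14, 31283386 to 31294483 on Zv9) held 12850.3 FPKM in CNOT7-DN, compared with 12.6 in miR-430 MO, 24.6 in amanitin, 7.40 in control 6 hpf, 4.55 in control B and 26.9 in control 2 hpf. Its log2 ratio was 10.58, and it made up 1.26% of all FPKM in CNOT7-DN. The value marks the CNOT7-DN library as labelled, but this row adds injected and embryonic RNA together. The paralog cnot8 (ENSDARG00000020043) had 183 FPKM in CNOT7-DN, 143 in miR-430 MO, 326 in amanitin, 145 in control 6 hpf, 111 in control B and 199.6 in control 2 hpf, a rise of 0.33 (q = 0.034 in the authors' deposited table). No other subunit among the 11 tested passed that test. The scaffold cnot1 stood at 32.2 FPKM in CNOT7-DN, 34.3 in control 6 hpf and 75.5 in control B, while the catalytic subunit cnot6 stood at 101, 83.3 and 140.5 FPKM in the same order.

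By the authors' calls, more genes rose than fell. In their deposited table, 1465 of 14439 tested genes were higher in CNOT7-DN (10.1%) and 577 lower (3.996%), together 14.1%. Most changes were small: the median log2 ratio was 0.61 among genes that rose and -0.56 among those that fell, and 131 and 72 of them were at least 2-fold apart. Whatever their q-value, 236 genes (1.51%) lay 2-fold or more above control 6 hpf and 197 (1.26%) as far below. The middle of the distribution lay close to zero, with a median over all genes of 0.037 and quartiles of -0.17 and 0.26. Centring the ratios on ribosomal protein genes instead moved every ratio up by 0.18, and the 2-fold counts became 457 higher and 123 lower, 78.8% higher against 54.5% without it. Centring on the median gene moved them down by 0.037 and gave 198 higher and 219 lower, 47.5% higher, so by size the side with more genes depended on the scaling.

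The controls of 6 hpf differed from each other at least as much as CNOT7-DN differed from its control. The median absolute log2 difference was 0.22 between CNOT7-DN and control 6 hpf, 0.38 between CNOT7-DN and control B and 0.26 between the controls, and 296 genes were at least 2-fold higher and 247 at least 2-fold lower in control B than in control 6 hpf. Of the 1465 genes that rose, 1430 also lay above control B, as did 80.97% of the 8533 genes above control 6 hpf whatever their q-value. Among the 577 that fell, 559 also lay below control B, as did 71.7% of the 7093 genes below control 6 hpf. Both ratios share the CNOT7-DN value, so these counts describe the genes and are no second test. The part of the difference between the controls in any single gene's result was not tested, and control B is given beside most of the main values.

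The genes that rose were largely RNAs of the egg that control embryos lose. To describe this without the columns of the comparison, genes were sorted by control 2 hpf and control B alone. A cleared gene had at least 5 FPKM at 2 hpf and was at least 2-fold lower in control B; a stable gene, from the same 2 hpf level, lay within 1.5-fold; a gained gene, likewise, was at least 2-fold higher in control B; and a zygotic gene had under 1 FPKM at 2 hpf and at least 5 in control B. Of 4859 cleared genes tested, 1167 (24.0%) were higher in CNOT7-DN and 11 (0.226%) lower. Cleared genes were 31.6% of all genes considered and held 79.7% of all that rose. Their median log2 ratio was 0.26, or 0.57 against control B, in which they were required to be low. Control B over control 6 hpf had a median of -0.31 in this set, larger in size than that of CNOT7-DN, and its part was not tested. Among 2970 stable genes tested, 82 (2.76%) rose and 99 (3.33%) fell, with a median of -0.053. Gained genes numbered 906 tested, of which 8 rose and 83 (9.16%) fell, with a median of -0.17.

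Genes that control embryos lost more of rose more often. Among genes with at least 5 FPKM at 2 hpf and a fall between control 2 hpf and control B of 1.5- to 2-fold, 7.96% of 1395 tested genes rose in CNOT7-DN; with a fall of 2- to 4-fold, 19.8% of 3271 did; with 4- to 8-fold, 31.8% of 1414; and with 8- to 16-fold, 37.7% of 162. The median log2 ratio in these bins was 0.09, 0.22, 0.36 and 0.43. Control B, which defines the bins, had medians over control 6 hpf of -0.10, -0.24, -0.41 and -0.58 in the same order. The part of this difference between the controls in the trend was not tested. A last bin, of genes falling 16-fold or more, held 12 tested genes, too few to carry the trend, which was seen without it. In the opposite direction, 9.16% of 906 tested genes at least 2-fold higher in control B fell in CNOT7-DN.

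**Figure D1:**
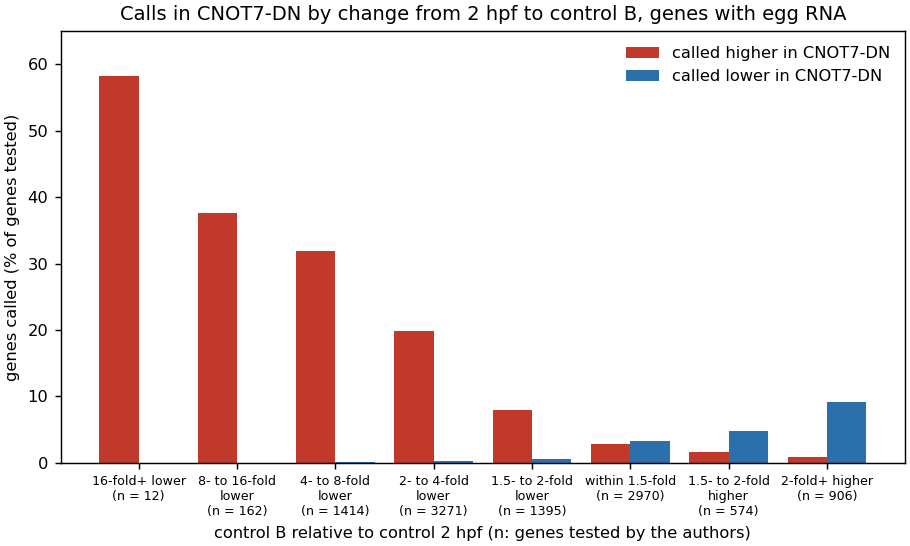
Share of tested genes that rose or fell in CNOT7-DN against control 6 hpf (authors' q-value under 0.05, percent), by the change between control 2 hpf and control B. The share that rose is 37.7% among genes falling 8- to 16-fold and 2.76% among genes within 1.5-fold; the first bin holds 12 genes.

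Egg RNAs in CNOT7-DN were nevertheless mostly below their level at 2 hpf. Cleared genes held a median of 41.9% of their 2 hpf FPKM in CNOT7-DN, 29.7% in miR-430 MO, 50.8% in amanitin, 33.2% in control 6 hpf and 26.9% in control B. For the 1167 cleared genes that rose, the medians were 50.4% in CNOT7-DN, 27.5% in miR-430 MO, 54.9% in amanitin, 29.9% in control 6 hpf and 24.1% in control B. These genes were chosen for CNOT7-DN above control 6 hpf, which widens the gap between those 2 medians, so they are a description only. Of these 1167 genes, 1162 still lay below 2 hpf in CNOT7-DN and 5 at or above it. Most cleared genes did so whatever their call, with 4921 of 4937 below 2 hpf. The cnot7 row, which holds injected RNA, is counted among the 1167 and among the 5. FPKM are shares of each library, so these percentages are not amounts per embryo.

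**Figure D2:**
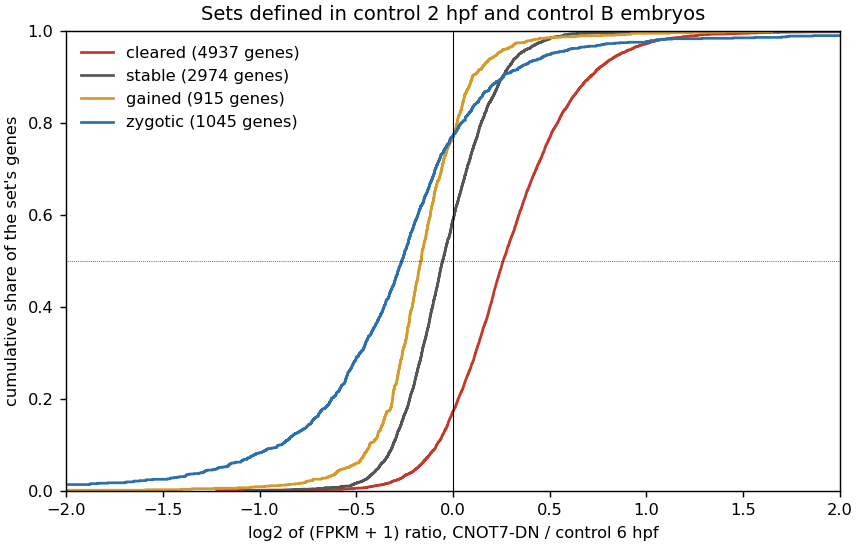
Cumulative share of genes against the log2 ratio of FPKM + 1, CNOT7-DN over control 6 hpf, for the sets defined in control 2 hpf and control B. The cleared curve lies to the right, with a median of 0.26, and the zygotic curve to the left, with a median of -0.26.

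Cleared genes were divided by their level in amanitin, which blocks transcription by the embryo. Amanitin at least 2-fold above control B marked 2124 tested cleared genes, and 28.95% of them rose in CNOT7-DN, with a median of 0.31. Where amanitin lay within 1.5-fold of control B, often read as clearance by maternal factors, 21.0% of 1431 tested genes rose, with a median of 0.25. Where it lay at least 2-fold below, 13.2% of 273 rose, close to the share over all genes. Over all genes 10.1% rose, and over all cleared genes 24.0%. The differences between these shares were not tested. Cleared genes with amanitin between these limits belong to none of the 3 kinds. Control B, which defines the kinds, had medians over control 6 hpf of -0.39, -0.26 and -0.040 in the same order. The part of that difference was not tested. In miR-430 MO, which was set against the same control 6 hpf, the median log2 ratio was 0.059 for the first kind and -0.37 for the second.

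Beside cnot7, the 11 largest rises had log2 ratios of 1.505 to 2.098 and q-values of 0.000996 to 0.0018 in the authors' deposited table. By choice they lay above control 6 hpf. All 11 also lay above control B, as did 80.97% of all genes above control 6 hpf, which is no second test of these rises. In 10 of them control 2 hpf lay above control 6 hpf, as in 62.2% of all genes considered; since the rises were chosen partly for a low control 6 hpf, that count is a description only. The Polycomb subunit bmi1b (ENSDARG00000013076, chromosome 2, 20960929 to 20966517 on Zv9) had 41.8 FPKM in CNOT7-DN, 3.75 in miR-430 MO, 8.29 in amanitin, 11.97 in control 6 hpf, 8.19 in control B and 86.2 in control 2 hpf, a log2 ratio of 1.72. In CNOT7-DN it thus lay above every other group of 6 hpf and below 2 hpf.

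The augmin subunit haus6, which helps to build the mitotic spindle, had 151 FPKM in CNOT7-DN, 32.9 in miR-430 MO, 73.3 in amanitin, 49.3 in control 6 hpf, 30.5 in control B and 279 in control 2 hpf (1.60). The gene sinup stood at 80.8 FPKM in CNOT7-DN, 13.1 in miR-430 MO, 25.4 in control 6 hpf, 14.1 in control B and 312 in control 2 hpf. The mitochondrial ribosomal protein gene mrps30 had 34.7 FPKM in CNOT7-DN, 10.5 in control 6 hpf, 6.97 in control B and 46.9 in control 2 hpf (1.64). All 3 showed the same order, with CNOT7-DN between 2 hpf and the controls of 6 hpf. Deoxycytidine kinase, dck, had 14.7 FPKM in CNOT7-DN, 4.44 in control 6 hpf, 3.09 in control B and 39.7 in control 2 hpf, and gpn3, a small GTPase of RNA polymerase assembly, 28.02, 8.64, 7.98 and 56.4 FPKM in the same order. The others of this kind were ccdc82, SAMD5 and r3hcc1, at 83.6, 12.2 and 21.7 FPKM in CNOT7-DN and 25.4, 3.15 and 6.69 in control 6 hpf.

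Among the largest rises, 2 stood apart. The synaptic release gene rims1a had 12.5 FPKM in CNOT7-DN, 2.07 in miR-430 MO, 40.8 in amanitin, 2.14 in control 6 hpf, 5.49 in control B and 8.16 in control 2 hpf, so that its controls differed by more than 2-fold and it was no cleared gene by the rule. The keratin krt1-c5 had 6.59 FPKM in CNOT7-DN, 1.68 in control 6 hpf, 2.48 in control B and 0.230 in control 2 hpf, and is the single large riser that the egg hardly held. The loci of rims1a, haus6, sinup and r3hcc1 are shared with another row of the table, so their values are uncertain.

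**Figure D3:**
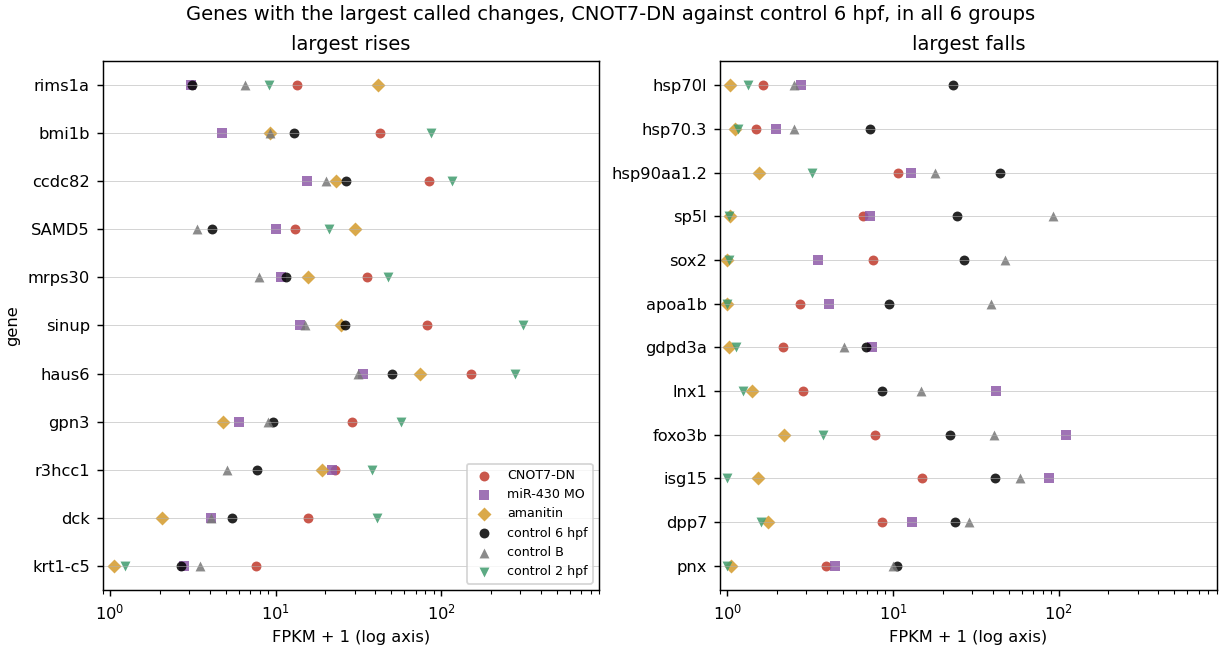
FPKM + 1 (log axis) in each of the 6 groups for the genes with the largest rises, cnot7 left out, and the largest falls in CNOT7-DN against control 6 hpf; each point is 1 deposited value. For 10 of the 11 rises control 2 hpf lies above control 6 hpf, and for all 12 falls it lies below.

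Genes of the oocyte and egg were often higher: of 37 tested, 15 rose (40.5%, beside 10.1% of all genes) and none fell. The median log2 ratio was 0.29 against 0.037 over all genes, and 0.63 against control B. Control B over control 6 hpf had a median of -0.36 on this list, a difference whose part in these rises was not tested. The oogenesis-related gene org (ENSDARG00000076474) had 262 FPKM in CNOT7-DN, 37.3 in miR-430 MO, 72.8 in amanitin, 92.6 in control 6 hpf, 74.6 in control B and 675 in control 2 hpf, a log2 ratio of 1.49. The maternal linker histone h1m had 756 FPKM in CNOT7-DN, 314 in control 6 hpf, 182 in control B and 1064.5 in control 2 hpf (1.27). Both lay in CNOT7-DN above each 6 hpf control and below the egg.

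The RNA-binding egg factor zar1l had 133 FPKM in CNOT7-DN, 56.6 in control 6 hpf, 44.9 in control B and 496 in control 2 hpf (1.22), on a locus shared with another row. Maternal claudins, membrane proteins of tight junctions, rose likewise: cldnd had 558 FPKM in CNOT7-DN, 245 in control 6 hpf, 184 in control B and 1853 in control 2 hpf (1.18), and cldng 202, 97.8, 67.0 and 1373 FPKM in the same order (1.04). Regulators of the egg's meiotic arrest were among the risers, with the kinase mos at 28.4 FPKM in CNOT7-DN, 15.3 in control 6 hpf, 12.7 in control B and 170.2 in control 2 hpf (0.85). The inhibitor of the anaphase-promoting complex fbxo43 had 79.9, 35.9, 26.9 and 163 FPKM in that order (1.13). The cyclins ccna1, ccnb1 and ccnb2 rose by 0.61, 0.64 and 0.70, the most abundant being ccnb1 with 2761 FPKM in CNOT7-DN, 1768 in control 6 hpf, 1219 in control B and 2719 in control 2 hpf.

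Of 27 tested genes of Polycomb repression and DNA methylation, 9 rose (33.3%, beside 10.1% of all genes) and none fell. Their median was 0.13, with a lower quartile of -0.029. Control B over control 6 hpf had a median of -0.17 on this list, a difference whose part was not tested. Besides bmi1b the risers were its paralog bmi1a, phc2a, phc2b, pcgf1, pcgf6, suz12a, suz12b and dnmt1. The subunit phc2b (ENSDARG00000001915) had 969 FPKM in CNOT7-DN, 868 in miR-430 MO, 1704 in amanitin, 278 in control 6 hpf, 158 in control B and 2269 in control 2 hpf, a log2 ratio of 1.80. A second row of the same symbol, ENSDARG00000013224, stood at 4.91 FPKM in CNOT7-DN and 3.62 in control 6 hpf and did not pass the test. The maintenance methyltransferase dnmt1 had 158 FPKM in CNOT7-DN, 155 in miR-430 MO, 219 in amanitin, 87.4 in control 6 hpf, 67.6 in control B and 516 in control 2 hpf (0.85). For phc2b the miR-430 MO value lay beside that of CNOT7-DN; for bmi1b it lay below control 6 hpf.

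Germ plasm RNAs, which are protected in the primordial germ cells and cleared elsewhere, had 2 of 15 tested higher (13.3%, close to the 10.1% of all genes), none lower and a median of 0.16. On this list control B over control 6 hpf had a median of -0.26, a difference whose part was not tested. The Piwi gene piwil2 had 21.98 FPKM in CNOT7-DN, 12.6 in control 6 hpf, 10.1 in control B and 41.2 in control 2 hpf (0.76), and the Tudor gene tdrd7 23.8, 16.6, 17.6 and 56.6 FPKM (0.49). The locus of piwil2 is shared with another row, so its values are uncertain. The germ plasm organiser buc did not pass the test, with 98.9 FPKM in CNOT7-DN, 96.5 in control 6 hpf, 80.5 in control B and 546 in control 2 hpf. The same held for dazl, with 42.1, 34.4, 23.6 and 209 FPKM, and for nanos3, with 27.8 FPKM in CNOT7-DN and 23.9 in control 6 hpf. In whole embryos, fewer cells of a type and less RNA per cell cannot be told apart, here and for every tissue gene.

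Of 18 tested genes reported as miR-430 targets, 4 rose (22.2%) and 1, the Nodal antagonist lft1, fell (5.56%). Over all genes 10.1% rose and 3.996% fell. The median of the list was 0.10, or 0.38 against control B. On this list control B over control 6 hpf had a median of -0.34, larger in size than that of CNOT7-DN, and its part was not tested. The tetraspanin gene cd82b had 107 FPKM in CNOT7-DN, 178 in miR-430 MO, 326 in amanitin, 57.6 in control 6 hpf, 30.4 in control B and 218 in control 2 hpf (0.87). The glutathione transferase gene gstm had 51.7 FPKM in CNOT7-DN, 91.6 in miR-430 MO, 29.8 in control 6 hpf, 19.2 in control B and 91.8 in control 2 hpf (0.77). For both, CNOT7-DN lay between control 6 hpf and miR-430 MO. Over the list the median log2 ratio was 0.47 in miR-430 MO, from the same control. The row of a miR-430 precursor, mir430a-11, stood at 11676 FPKM in CNOT7-DN, 10662 in miR-430 MO, 9551 in control 6 hpf and 3299 in control B; it did not pass the test in CNOT7-DN (q = 0.148 in the authors' deposited table).

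Factors of mRNA decay that lie outside the complex changed in part. On a list of BTG and Tob adaptors and other deadenylation factors, 6 of 23 tested rose (26.1%) and 1 fell (4.35%). Over all genes the shares were 10.1% and 3.996%. The median of the list was 0.078, or -0.089 against control B. The egg poly(A)-binding protein gene pabpn1l had 175 FPKM in CNOT7-DN, 87.0 in control 6 hpf, 50.9 in control B and 339 in control 2 hpf (1.004). The adaptor btg4, which in the mouse egg recruits the deadenylase, had 83.2 FPKM in CNOT7-DN, 58.4 in control 6 hpf, 29.5 in control B and 618 in control 2 hpf (0.50), and btg3 152, 107, 77.8 and 329 FPKM (0.50). The gene that fell, ZFP36, an ARE-binding decay factor, had 3.35 FPKM in CNOT7-DN, 6.34 in control 6 hpf and 15.8 in control B (-0.76). The 3 risers described here were all more abundant at 2 hpf than in the controls of 6 hpf.

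In the decapping group 4 of 19 tested genes rose (21.1%, beside 10.1% of all genes) and none fell. Of the risers, lsm4 had 77.2 FPKM in CNOT7-DN and 46.1 in control 6 hpf, and lsm1 22.4 and 13.5. The others were the helicase ddx6 (58.6 and 43.2) and PATL2 (42.2 and 32.5). The median of the group was -0.048, or 0.13 after centring on ribosomal protein genes. Of 24 exosome, surveillance and exonuclease genes tested, exosc7 rose (44.8 FPKM in CNOT7-DN and 22.2 in control 6 hpf). On the same list 4 genes of nonsense-mediated decay, smg1, smg5, upf1 and upf2, fell by 0.32 to 0.37. These shares were 4.17% higher and 16.7% lower, beside 10.1% and 3.996% of all genes. Among 11 genes of microRNA processing tested, the argonaute eif2c3b (22.6 and 16.2 FPKM) and dgcr8 (96.5 and 71.4 FPKM) rose and none fell. The share that rose was 18.2%, beside 10.1% of all genes. The loci of lsm4 and dgcr8 are shared with another row, so their values are uncertain.

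On a mixed list of pluripotency and activator factors, which holds zygotic genes too, 6 of 11 tested rose (54.5%) and 2 fell (18.2%). Its median was 0.33. The risers included mycb, and vsx1 at a low level, 1.68 FPKM in CNOT7-DN and 0.574 in control 6 hpf. Over all genes 10.1% rose and 3.996% fell. The homeobox factor nanog had 716 FPKM in CNOT7-DN, 551 in miR-430 MO, 600.2 in amanitin, 534 in control 6 hpf, 388 in control B and 485 in control 2 hpf (0.42). The maternal SoxB1 gene sox19b had 134 FPKM in CNOT7-DN, 193 in miR-430 MO, 376 in amanitin, 83.1 in control 6 hpf, 70.2 in control B and 289.9 in control 2 hpf (0.68). The third activator, pou5f1, did not pass the test, at 674 FPKM in CNOT7-DN, 755 in control 6 hpf and 888 in control B. The 2 that fell were the zygotic SoxB1 genes sox2 and sox3, the second with 198 FPKM in CNOT7-DN, 299 in control 6 hpf, 268 in control B and 1.08 in control 2 hpf (-0.60).

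The genes that fell were more often genes the embryo itself switches on. Of 1000 zygotic genes tested, 235 (23.5%) fell and 16 (1.60%) rose. The set made up 6.69% of genes considered and 40.7% of all that fell. Its median log2 ratio was -0.26, or -0.62 against control B. Control B over control 6 hpf had a median of 0.33 in this set, larger in size than that of CNOT7-DN, and its part was not tested. Since these genes were required to be high in control B, the comparison with control 6 hpf is the one that leaves the choice aside.

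The 12 largest falls had log2 ratios between -1.43 and -3.82, each with q = 0.000996 in the authors' deposited table. By choice they lay below control 6 hpf. All 12 also lay below control B, as did 71.7% of all genes below control 6 hpf, which is no second test of these falls. In all 12, control 2 hpf lay below control 6 hpf, and in 10 it was under 1 FPKM. Over all genes considered 37.6% lay below control 6 hpf at 2 hpf, and choosing falls favours a high control 6 hpf, so this too is a description only. The largest were heat-inducible chaperones. Of these, hsp70l had 0.639 FPKM in CNOT7-DN, 1.79 in miR-430 MO, 22.1 in control 6 hpf, 1.52 in control B and 0.325 in control 2 hpf, hsp70.3 had 0.489 FPKM in CNOT7-DN, 6.27 in control 6 hpf and 1.52 in control B, while hsp90aa1.2 had 9.69, 43.4 and 16.8 FPKM in the same order. For all 3, control B lay nearer to CNOT7-DN than to control 6 hpf, which was the highest of all groups. Against control B the ratio of hsp70l was -0.62.

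The other large falls did not have this form, since control B lay above control 6 hpf in all of them but gdpd3a and pnx. The Sp1-family factor sp5l, a target of Wnt signalling (ENSDARG00000010124, chromosome 23, 28267501 to 28270357 on Zv9), had 5.60 FPKM in CNOT7-DN, 6.22 in miR-430 MO, 0.039 in amanitin, 23.3 in control 6 hpf, 91.6 in control B and 0.019 in control 2 hpf (-1.88). The neural and pluripotency factor sox2 had 6.53 FPKM in CNOT7-DN, 2.501 in miR-430 MO, 25.9 in control 6 hpf, 46.6 in control B and 0.017 in control 2 hpf (-1.84). Both were also low in miR-430 MO, which was set against the same control. The stress-responsive Forkhead factor foxo3b had 6.74 FPKM in CNOT7-DN, 110 in miR-430 MO, 21.1 in control 6 hpf and 39.8 in control B (-1.51), while the ubiquitin-like gene isg15 had 13.9, 86.9, 40.1 and 57.2 FPKM in that order (-1.46). For these the injected groups lay on opposite sides of the control. The remaining ones were apoa1b, gdpd3a, lnx1, dpp7 and pnx, at 1.15 to 7.63 FPKM in CNOT7-DN and 5.86 to 22.8 FPKM in control 6 hpf. The loci of sox2, hsp70.3, gdpd3a and lnx1 are shared with another row, so their values are uncertain.

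Of 46 zygotic transcription factors of the body plan tested, 19 fell (41.3%, beside 3.996% of all genes) and 4 rose (8.70%, beside 10.1%). Their median was -0.41, or -0.75 against control B. Genes of the posterior body and paraxial mesoderm were among those that fell. The mesendoderm marker tbx16 did not pass the test, with 180 FPKM in CNOT7-DN, 194 in control 6 hpf and 254 in control B (-0.10). The oscillating repressor her7 had 13.2 FPKM in CNOT7-DN, 28.2 in miR-430 MO, 36.3 in control 6 hpf, 60.5 in control B and 4.31 in control 2 hpf (-1.40). The presomitic mesoderm factor msgn1 had 5.86 FPKM in CNOT7-DN, 15.6 in control 6 hpf and 41.6 in control B (-1.28), while the caudal homeobox gene cdx4 had 6.98, 16.4 and 38.3 FPKM (-1.12). In each of these CNOT7-DN was lowest and control B highest of the 6 hpf groups without amanitin.

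The Brachyury genes ntla and ntlb fell, ntla to 121 FPKM in CNOT7-DN, compared with 189 in control 6 hpf and 314 in control B (-0.64). The early pan-neural gene sox19a had 299.6 FPKM in CNOT7-DN, 425 in control 6 hpf and 394 in control B (-0.50). Rises were seen for the midbrain-hindbrain repressor her5, with 107 FPKM in CNOT7-DN, 66.2 in control 6 hpf and 30.1 in control B (0.68). The genes her9, sox11a and sox11b rose as well. The controls also differed on this list, control B over control 6 hpf having a median log2 ratio of 0.56. That difference is larger than the one of CNOT7-DN; its part in these results was not tested.

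**Figure D4:**
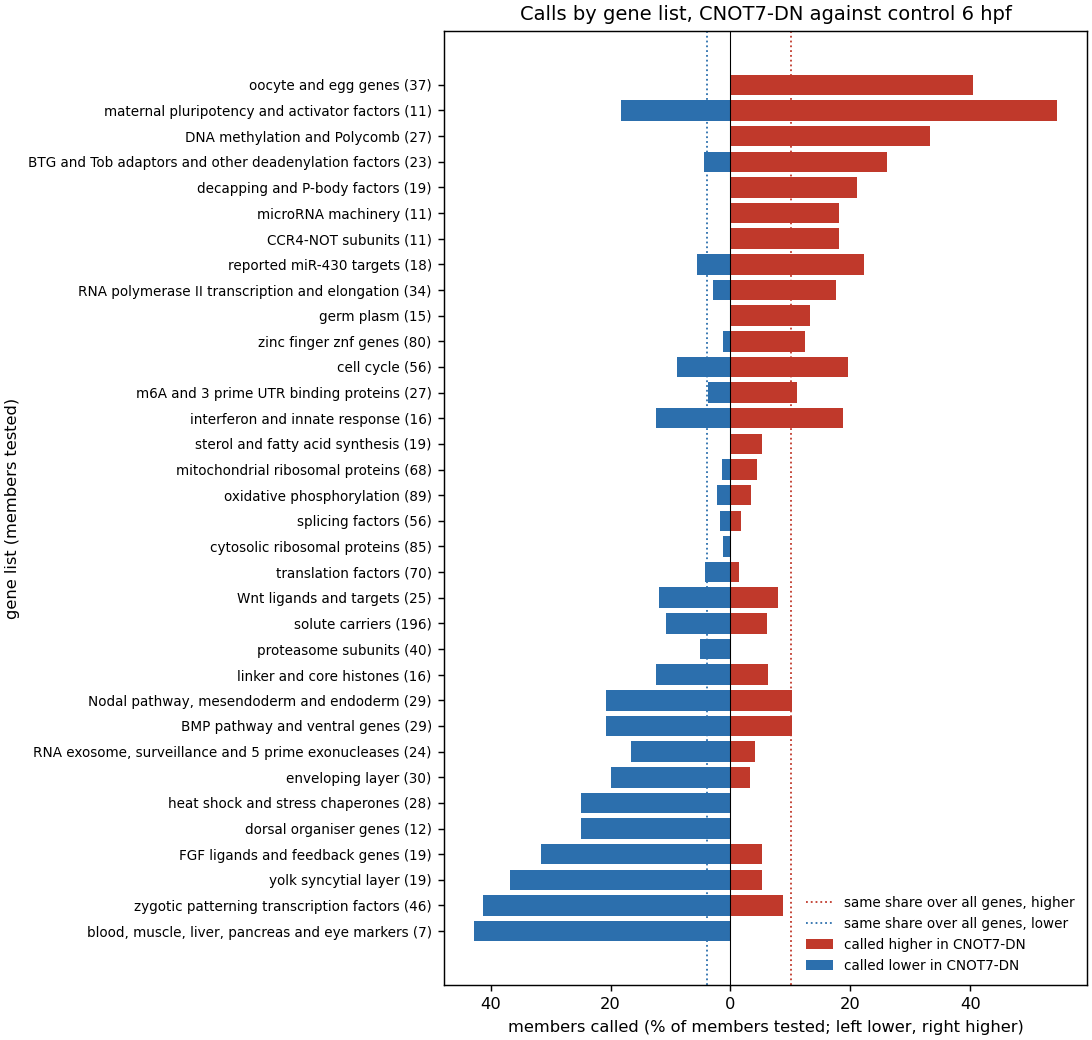
Percent of tested genes of each list that rose or fell in CNOT7-DN against control 6 hpf (authors' q-value under 0.05); dotted lines give the shares over all genes, 10.1% and 3.996%. Egg genes lie on the side of rises, and patterning factors and yolk syncytial layer genes on the side of falls.

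Of 29 tested Nodal and mesendoderm genes, 6 fell (20.7%, beside 3.996% of all genes) and 3 rose (10.3%, beside 10.1%), with a median of -0.049 that was 0.13 after centring on ribosomal protein genes. The apelin receptor aplnrb had 41.2 FPKM in CNOT7-DN, 198 in miR-430 MO, 86.1 in control 6 hpf and 131 in control B (-1.05), while the endoderm factor sox32 had 95.3, 104, 156 and 188 FPKM in that order (-0.70). The Nodal co-receptor oep, by contrast, had 308 FPKM in CNOT7-DN, 174 in miR-430 MO, 198 in control 6 hpf and 132 in control B (0.63). The yolk syncytial regulator mxtx2 had 114, 72.9, 75.3 and 35.8 FPKM in that order (0.60).

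The BMP list gave 6 falls (20.7%, beside 3.996% of all genes) and 3 rises (10.3%, close to the 10.1% of all genes) among 29 tested. Its median was -0.051, or 0.13 after centring on ribosomal protein genes and -0.41 against control B. The ligands bmp2b and bmp4 fell, bmp4 to 23.7 FPKM in CNOT7-DN, compared with 38.1 in control 6 hpf and 40.5 in control B (-0.66). The secreted modulator bmper had 2.22 FPKM in CNOT7-DN and 6.91 in control 6 hpf (-1.30). The targets that rose included id1, with 1237 FPKM in CNOT7-DN, 931 in control 6 hpf and 674 in control B (0.41), the feedback inhibitor szl, with 43.01, 24.4 and 16.7 FPKM (0.80), and msxb, with 15.3, 7.14 and 7.76 FPKM (1.01).

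FGF genes fell in 6 of 19 tested cases (31.6%) and rose in 1 (5.26%), with a median of -0.27. Over all genes 3.996% fell and 10.1% rose. The ligand fgf24 had 2.18 FPKM in CNOT7-DN, 6.02 in control 6 hpf and 7.30 in control B (-1.14), while the feedback phosphatase dusp6 had 95.03, 129 and 144 FPKM (-0.44). The Wnt list had 3 falls (12%), sp5l, sfrp1a and ctnnb1, and 2 rises (8%), dact1 and dact2, among 25 tested. Its median was -0.25. On the dorsal organiser list, foxa2 fell, as did sp5l and sfrp1a, which are the same genes counted on the Wnt list. These falls were 25% of 12 genes tested, and none rose. The median was -0.29, or -0.68 against control B. Control B over control 6 hpf had a median of 0.31 on this list, and the part of that difference was not tested.

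Extraembryonic layers showed more falls than rises. In the enveloping layer, the outer epithelium, 6 of 30 tested genes fell (20%) and 1, the adhesion gene epcam, rose (3.33%). Over all genes 3.996% fell and 10.1% rose. The median of this list was -0.24. The desmosomal gene dspa had 26.5 FPKM in CNOT7-DN, 47.3 in control 6 hpf and 69.5 in control B (-0.81), while the keratin krt4 had 623, 821 and 917 FPKM (-0.40). In the yolk syncytial layer 7 of 19 tested fell (36.8%) and mxtx2 rose (5.26%), with a median of -0.29, or -0.71 against control B. Here control B over control 6 hpf had a median of 0.33, larger in size than that of CNOT7-DN, and its part was not tested. The apolipoprotein apoa1b had 1.75 FPKM in CNOT7-DN, 3.10 in miR-430 MO, 8.46 in control 6 hpf and 38.04 in control B (-1.79), while apoeb had 1059, 1493, 1622 and 2036 FPKM in that order (-0.61). Summed over the defining markers, enveloping layer genes came to 3062 FPKM in CNOT7-DN, 3576 in control 6 hpf and 3759 in control B. Of these markers krt4 and krt8 fell, while krt18, krt5 and cyt1 did not pass the test. The largest part, krt18, had 1529 FPKM in CNOT7-DN, 1636 in control 6 hpf and 1519 in control B. Markers of the yolk syncytial layer came to 1492, 2085 and 2504 FPKM in that order, of which apoeb made up most. Of the other yolk syncytial markers summed, both mtp rows and apoa2 did not pass the test, and mxtx2 rose. Markers of blood, muscle, liver, pancreas and eye were below 1 FPKM in CNOT7-DN and control 6 hpf for 8 of 11 rows, the highest being tfa at 15.2 and 27.9 FPKM. The wider list of such tissues had 3 falls (42.9%) and 0 rises among 7 rows tested. These falls were both rows of the leukocyte gene lcp1 and tfa, which is counted on the yolk syncytial list too. The median of this wider list was -0.54, or -0.26 when only symbols on 1 row were kept.

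Some single genes of cell cycle arrest and cell death are given as examples, with no count over a group. The cell cycle inhibitor cdkn1a (ENSDARG00000076554) had 9.71 FPKM in CNOT7-DN, 76.5 in miR-430 MO, 0.27 in amanitin, 26.9 in control 6 hpf, 38.3 in control B and 0.774 in control 2 hpf (-1.38). The death gene bbc3 had 2.94 FPKM in CNOT7-DN, 32.04 in miR-430 MO, 9.06 in control 6 hpf and 13.4 in control B (-1.35), while phlda3, an inhibitor of Akt signalling, had 10.4, 123, 27.1 and 35.1 FPKM in that order (-1.30). In these genes CNOT7-DN was below and miR-430 MO above both controls of 6 hpf. The ubiquitin ligase gene mdm2 had 136 FPKM in CNOT7-DN, 463 in miR-430 MO, 249 in control 6 hpf and 449 in control B (-0.86). The miR-430 MO values were set against the same control 6 hpf. Of other stress genes, btg2 and sesn2 rose and had 181 and 21.1 FPKM in CNOT7-DN, 133 and 12.5 in control 6 hpf, and 184 and 81.3 in control 2 hpf, so both were present in the egg.

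With the inducible genes counted, 7 of 28 tested heat shock and chaperone genes fell (25%, beside 3.996% of all genes) and none rose. Their median was -0.19, or -0.0077 after centring on ribosomal protein genes. The small heat shock protein hspb1 had 802 FPKM in CNOT7-DN, 1203 in control 6 hpf and 1829 in control B (-0.58). Cell cycle genes had 11 rises (19.6%) and 5 falls (8.93%) among 56 tested, beside 10.1% and 3.996% of all genes. Their median was -0.035, or 0.14 after centring on ribosomal protein genes and 0.081 against control B. The replication inhibitor gmnn, the most abundant riser after ccnb1, had 1010.3 FPKM in CNOT7-DN, 563 in control 6 hpf, 254 in control B and 1172 in control 2 hpf (0.84); its locus is shared with another row. Of the fallers, ccng2 had 19.4 FPKM in CNOT7-DN, 34.9 in control 6 hpf and 63.7 in control B (-0.81). Interferon and innate genes gave 3 rises (18.8%) and 2 falls (12.5%) among 16 tested, beside the same shares over all genes. Of the risers, irf7, a regulator of interferon genes, had 8.28 FPKM in CNOT7-DN and 3.72 in control 6 hpf (0.97). It stood at 2.27 FPKM in control B and 5.81 in control 2 hpf. The fallers were isg15 (-1.46), the largest change on the list, and mxe (-0.66).

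In lists of ribosomes, proteasomes, splicing, respiration and translation the shares that rose or fell lay below the 14.1% of all genes, a difference that was not tested. Among 85 cytosolic ribosomal protein genes tested, none rose and 1 fell, the gene rps27.2 with 54.8 FPKM in CNOT7-DN, 130.1 in control 6 hpf and 161 in control B (-1.23). That symbol stands on several rows. The ribosomal protein genes had a median of -0.18. Proteasome subunits (40 tested, 2 fell) and splicing factors (56 tested, 1 rose and 1 fell) had medians of -0.20 and -0.19. After centring on ribosomal protein genes the medians of these last lists were -0.025 and -0.010. Oxidative phosphorylation genes (89 tested, 3 rose and 2 fell) had a median of -0.10, or 0.079 after centring on ribosomal protein genes, and translation factors (70 tested, 1 rose and 3 fell) of -0.17, or 0.0094 after it. Mitochondrial ribosomal proteins, with 3 rises and 1 fall among 68 tested, had a median of 0.11.

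Other broad lists are set beside the shares over all genes, 10.1% higher and 3.996% lower. Of 80 zinc finger znf genes tested 10 rose (12.5%) and 1 fell (1.25%), with a median of 0.10. Among 196 solute carriers tested 12 rose (6.12%) and 21 fell (10.7%), and the median was 0.020, or -0.017 after centring on the median gene. Linker and core histones had 1 rise, h1m, and 2 falls (12.5%) among 16 tested, with a median of -0.083, or 0.096 after centring on ribosomal protein genes. Among factors of RNA polymerase II transcription 6 of 34 tested rose (17.6%), the TATA-binding genes tbp and tbpl2 with them, and 1 fell. Readers and writers of m6A and other 3′ UTR binding proteins had 3 rises (11.1%) and 1 fall (3.70%) among 27 tested. Sterol and fatty acid synthesis had 1 rise (5.26%), fdps, among 19.

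How often genes were called also varied with their level. Of genes tested at 1 to 5 FPKM in control 6 hpf, 7.01% rose and 1.99% fell; at 10 to 20 FPKM, 14.8% and 3.67%; and at 100 FPKM or more, 3.80% and 7.29%. Falls thus outnumbered rises only at 100 FPKM or more, and rises outnumbered falls at every lower level. At 50 to 100 FPKM the shares were close, 7.97% and 7.51%. Control 6 hpf sets these levels and is also the base of the ratio, which favours falls at high levels and rises at low ones. The trend is therefore a description only. The genomic span of the locus differed little, with a median of 14654 bases for genes that rose, 14340 for genes that fell and 13646 over all genes, counting genes that share their locus with no other row.

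**Figure D5:**
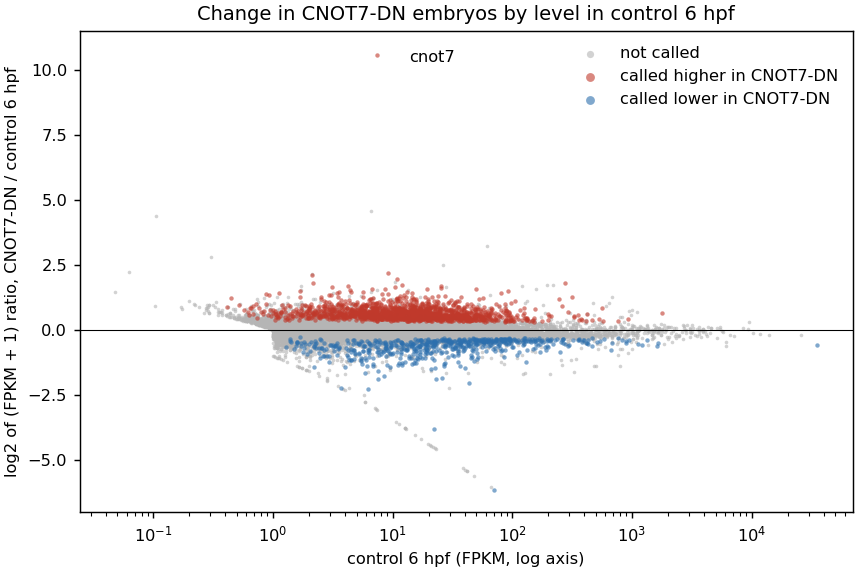
Log2 ratio of FPKM + 1, CNOT7-DN over control 6 hpf, against the FPKM in control 6 hpf (log axis), 1 point per gene, with rises and falls by the authors' q-value in color; genes listed at 0 in control 6 hpf are left out. Rises are 14.8% of tested genes at 10 to 20 FPKM and 3.80% at 100 FPKM or more.

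A few genes ran against their set, named here after their values were seen. Among the 16 zygotic genes that rose was the Myc gene mycn, with 36.5 FPKM in CNOT7-DN, 17.7 in control 6 hpf and 17.4 in control B (1.002). Others were vgll4l, with 149.8 FPKM in CNOT7-DN and 89.0 in control 6 hpf, her5, mxtx2, szl, dact1 and sox11a. Among the 11 cleared genes that fell were the serine synthesis enzyme phgdh, with 24.7 FPKM in CNOT7-DN, 36.5 in control 6 hpf and 28.8 in control B, the creatine kinase ckbb and the retinol-binding gene rbp1b.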

How the data were processed

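Libraries were stranded and made from total RNA of pooled whole embryos, depleted of ribosomal RNA, per the labels' protocols. Per the submitters' processing notes, TopHat 1.4.0 and Cuffdiff 2.1.1 were used with the build Zv9 (danRer7). Not given in the sources used here are annotation release, scaling between libraries and use of strand. The deposited table gives FPKM for both groups of each comparison, per the file headers, 1 value per group with replicates combined. A p-value, a q-value, a status and a call by the authors stand beside them, per the file headers. The q-values come from the authors' own test, and whether it used biological or technical replicates is unknown here.

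From these, log2 ratios were computed with a pseudocount of 1 for genes reaching 1 FPKM in CNOT7-DN or control 6 hpf. No p-value was computed here. Of 15626 genes, the authors tested 14439, left 1141 untested and gave 46 as low data. The q-values under 0.05 matched their calls with 0 exceptions. Rows that share a locus with another numbered 3104 (19.9%), and their values are uncertain. Besides genes marked so in the text, bmper, ccng2, fdps, sox11a and rbp1b are among them. Loci are those of the table, whose first base (0 or 1) was not checked. Of the FPKM columns, 4 repeat a group in other comparisons and were not used. Since no value per replicate was analysed, depth, counting intervals and spread are unknown.

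The comparison, the 35 gene lists, the sets and the rule for named genes were chosen with earlier results of these data known. Named genes are cnot7 and cnot8, the 12 largest rises (cnot7 among them) and 12 largest falls with q under 0.05 and at least 5 FPKM in either group, and up to 4 members of each list and of the cleared, stable and zygotic sets; small RNAs, placeholder names and symbols found on more than 1 row were left out of the largest changes and the set members. Other genes are named to spell out a list or as examples chosen after their values were seen. The gained set was added later. Kinases, argonautes and a distant ATP synthase relative caught by the name patterns of the ribosomal, translation and oxidative phosphorylation lists were removed after values were seen. Of the lists, 1 is not reported here.

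Tried as alternatives were an FPKM minimum of 5 or none, pseudocounts of 0.1 and 5, a q-value of 0.01, folds of 1.5 and 4, equal FPKM sums without cnot7, centring on the median or the ribosomal protein genes, unique symbols, no shared loci, and control B. Scripts were tested on simulated data. Python 3.11.15, numpy 2.4.6, pandas 2.3.3 and matplotlib 3.10.9 were used.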

Additional observations from a re-analysis of the deposited data

How the results depend on the processing

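Genes called higher numbered 869 at a q-value under 0.01 and 131 when a 2-fold difference was also asked; genes called lower numbered 305 and 72. By size, the numbers of genes at least 2-fold higher and lower were 441 and 377 with a pseudocount of 0.1, 106 and 67 with 5, 457 and 123 after centring on ribosomal protein genes, and 992 and 785 against control B. With an FPKM minimum of 5, 126 genes were 2-fold lower. At 1.5-fold 1159 genes were higher and 614 lower, and at 4-fold 46 and 39. Against control B the median of the cleared set was 0.57, of its amanitin-raised share 0.70 and of the zygotic set -0.62; the other 4 set medians moved by less than the difference between the controls. Cleared genes called higher numbered 518 when a 4-fold fall was asked, and zygotic genes called lower 133 when at least 20 FPKM were asked in control B; both follow from the smaller sets. Among 154 named genes, of which 144 had a call, the direction of 1 called gene turned against control B, the histone variant h2afvb, at 0.072. It also turned for 3 genes with no call, hmgcs1 (0.38), gsc (0.040) and krt18 (0.0097). The cause was not tested. Apart from h2afvb, 109 of the 154 ratios moved by more than the difference between the controls and 44 did not. Of 35 list medians, 6 moved by more than that difference. Both ratios of a gene share the CNOT7-DN value, so a kept direction is no second test. Leaving out shared loci kept the counts within 1.5 times. No paired analysis was possible because the columns hold 1 combined value per group and carry no replicate numbers, and for the same reason no replicate could be left out. Unknown depth limits what can be said of genes near 1 FPKM.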
